A study of Mus musculus with 54 samples.

Results

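The experiment described here compared mRNA from Sox9-EGFP Low cells of mice on a high fat diet with that of mice on chow. Its members are 8 of the 54 samples of a mouse small intestine series, 4 libraries for each diet, taken by their labels. All 8 came from strain C57BL/6J, with total RNA from sorted crypt cells of the small intestine as the starting material. The chow libraries are replicates 1 to 4, from the animals numbered BC180, BC183, BC241 and BC243. The high fat libraries are likewise replicates 1 to 4, from BC181, BC182, BC242 and BC244. Values are given below in these orders. The animal numbers form 2 series, BC18x and BC24x, each with 2 libraries per diet, and the series was used as a block. Of 48440 table entries, 16421 had a gene symbol and a mean of at least 10 normalized counts over the 8 libraries and were tested. The remaining samples of the series measured single cells, small RNA and germ-free or conventionalized mice. No source used here gives the composition or length of the diets, the age or sex of the mice, or whether animals were pooled. Nothing in the labels beyond the animal numbers says that the libraries came from separate mice, so the p-values measure the spread between these libraries.

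Intestinal crypts hold the stem cells that renew the epithelium, and the transcription factor Sox9 is made there at levels that differ between cell types. The Sox9-EGFP reporter mouse carries a fluorescent protein under the control of Sox9 sequences, and its Low fraction is known to hold many of the Lgr5-positive stem cells. Dietary fat reaches epithelial cells as fatty acids. These can bind nuclear receptors of the PPAR family, which switch on genes for carrying fatty acids, burning them in mitochondria and turning them into ketone bodies. The gut epithelium also holds hormone-secreting enteroendocrine cells and chemosensory tuft cells, and it can make MHC class II molecules, which display peptides to helper T cells.

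The 8 libraries held 14262000 to 19117886 normalized counts. Taking the most frequent value above 0 in each library as 1 read gave an estimated 14250000 to 21800000 reads. In a library 24509 to 29488 entries were above 0. No pair of libraries was identical. Labels conflict for 2 mice: the names used for their small RNA libraries call BC241 high fat and BC242 chow, opposite to the sample labels. The sample labels were followed, and many of the results below, but not all, are also given without these libraries. Over the first principal component, which held 43.4% of the variance, chow library BC241 lay farthest out, and over the second, with 20.4%, chow library BC183 did. Without BC241 and BC242, limma called 161 genes. For 130 of these 161, BC241 lay nearer to the mean of the other chow libraries than to that of the other high fat libraries. BC242 lay nearer to the other high fat libraries for 135 of them.

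The levels of 3 crypt stem cell markers were read in the 8 libraries. No other sorted fraction was compared, so these levels cannot show how pure the Low fraction was. Sox9 itself was at 4574, 4303, 6705 and 4659 normalized counts in the chow libraries and at 3876, 3693, 5444 and 3732 in the high fat libraries. The groups overlapped, and the log2 difference of -0.27 did not pass the test (limma adjusted p = 0.301). Lgr5, the receptor that marks crypt base stem cells, was at 2802, 2432, 1879.9 and 2155 in chow and at 1433, 2138, 2879.7 and 1661 in high fat. It overlapped as well (log2 difference -0.23, 95% interval -0.73 to 0.27, adjusted p = 0.546). Olfm4, a secreted protein abundant in crypt stem cells, had 38314 to 79691 in chow and 39869.6 to 102736 in high fat, with a difference of 0.05 (interval -0.73 to 0.83, adjusted p = 0.947). All 8 libraries thus carried these markers, and none of the 3 passed the test.

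At an adjusted p under 0.05, 1535 genes differed between the diets (9.35% of those tested). Of these, 714 were higher (4.35%) and 821 lower (5%) on high fat. Rescaling by median of ratios gave 441 genes higher and 827 lower, and quantile normalization gave 286 and 609. At an unadjusted p under 0.05, 4919 genes (30%) differed. The median log2 difference over all tested genes was 0.05, and 54.4% of them were higher by any amount. For 1188 of the 1535 called genes (7.23% of genes tested) the 4 libraries of one diet did not overlap the 4 of the other. Among the largest rises was that of Cyp4a10, a gene of fatty acid handling, at 4.02 on the log2 scale. The largest falls included MHC class II genes, with H2-Aa at -5.61.

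The number of calls depended on single libraries. It was 102 without BC180, 166 without BC181, 215 without BC242, 154 without BC244, 699 without BC241 and 885 without BC243, against 2253 without BC183 and 2279 without BC182. A group of 77 genes (0.469% of those tested), 28 higher (0.171%) and 49 lower (0.298%), was called in every one of these 8 fits, and they are named below as called with any library left out. The animal series themselves differed in 48 genes, 6 higher and 42 lower in BC24x. No gene passed a limma test of whether the diet difference itself differed between the series, and 1970 (12%) had an unadjusted p under 0.05 in it. These are bulk libraries, so fewer cells of a type and less RNA per cell cannot be told apart in any result that follows.

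**Figure D1:**
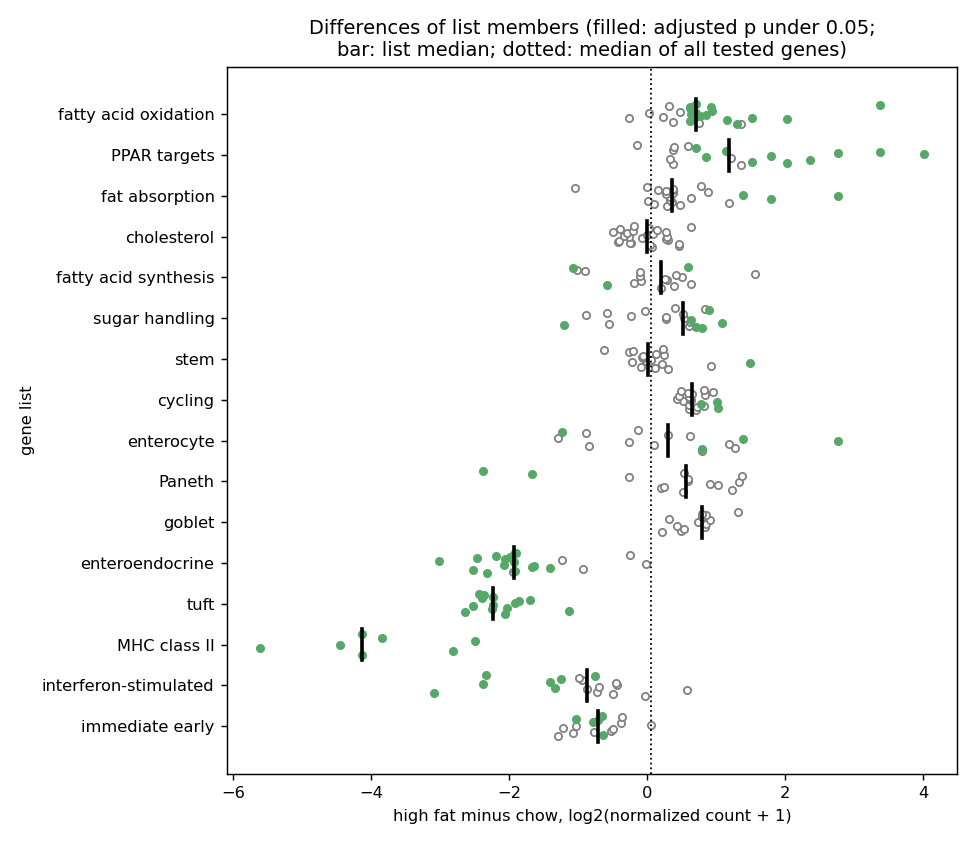
Difference between high fat and chow (log2 of normalized count + 1, horizontal axis) for the members of the gene lists (vertical axis), with 1 point per gene, filled where the adjusted p was under 0.05, a bar at each list's median and a dotted line at the median of all tested genes. Fatty acid oxidation and PPAR target genes lie to the right with medians of 0.70 and 1.18, and MHC class II, tuft and enteroendocrine genes lie to the left with medians of -4.13, -2.24 and -1.93.

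Genes for burning fatty acids and making ketone bodies were higher on high fat. Of 25 listed genes, 17 rose (4.35% of all genes did) and none fell. By any amount 24 of 25 were higher, with a median of 0.70 beside 0.05 over all genes. The libraries of 15 genes lay wholly above chow (8.81% of all genes did so).

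Acot1, which splits fatty acyl-CoA into fatty acid and coenzyme A, was at 399, 414, 581 and 404 in chow and at 1438, 1385, 2381 and 2225 in high fat. The groups stood well apart, with chow close together except for BC241, and the fitted rise was 4.06-fold (log2 2.02, SE 0.15, adjusted p = 0.00177). Reads of Acot1 and its near copy Acot2 may be shared between them, and Acot2 rose by 1.52. Acaa2, the thiolase of the last step of mitochondrial oxidation, was at 4277, 5111, 3904 and 4109 in chow and at 12149, 11836, 10414 and 8697 in high fat. All high fat values exceeded all chow values, with a 2.47-fold rise (log2 1.30, SE 0.13, adjusted p = 0.00549). Acadvl, the dehydrogenase that starts on very long chains, was at 2352, 2863, 2684 and 2341 in chow and at 6743, 6544, 5098 and 4605 in high fat. It too did not overlap and rose 2.22-fold (log2 1.15, SE 0.14, adjusted p = 0.0074). Acot1, Acaa2 and Acadvl were called with any library left out. In a limma fit over all 16 mRNA libraries of the series, Acot1 and Acadvl were called and Acaa2 was not (adjusted p = 0.053).

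Cpt1a, the gatekeeper that loads long-chain fatty acids for entry into mitochondria, was at 1908, 1704, 2451 and 1277 in chow and at 3482, 3565, 3019.6 and 2871 in high fat. The groups were apart by a narrow margin at BC241, with a log2 difference of 0.85 (SE 0.19, adjusted p = 0.0316). The call for Cpt1a was lost without BC180, BC243, BC181, BC242 or BC244, with an adjusted p of up to 0.103. The other steps of the pathway that rose were the carnitine carrier Slc25a20 (0.70) and Cpt2 (0.63), the subunits of the trifunctional protein Hadha (0.62) and Hadhb (0.92), and Acads (0.62), Hadh (0.62), Eci2 (0.94), Decr1 (0.70), Ehhadh (0.64) and Etfdh (0.63). Bdh1, which interconverts the ketone bodies, rose by 0.76. The dehydrogenases Acadl (0.74, adjusted p = 0.0522) and Acadm (0.38, adjusted p = 0.134) did not pass. The summed level of the list held 0.245%, 0.264%, 0.307% and 0.245% of the chow libraries and 0.476%, 0.529%, 0.488% and 0.45% of the high fat libraries. The number of rises on the list was 4 without BC180, 11 without BC243, 4 without BC181, 5 without BC242 and 5 without BC244, and it was 11 without both BC241 and BC242. It was 7 without the animal series as a block and 6 with the replicate number as a block. The list's median was 0.75 in series BC18x and 0.52 in BC24x.

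**Figure D2:**
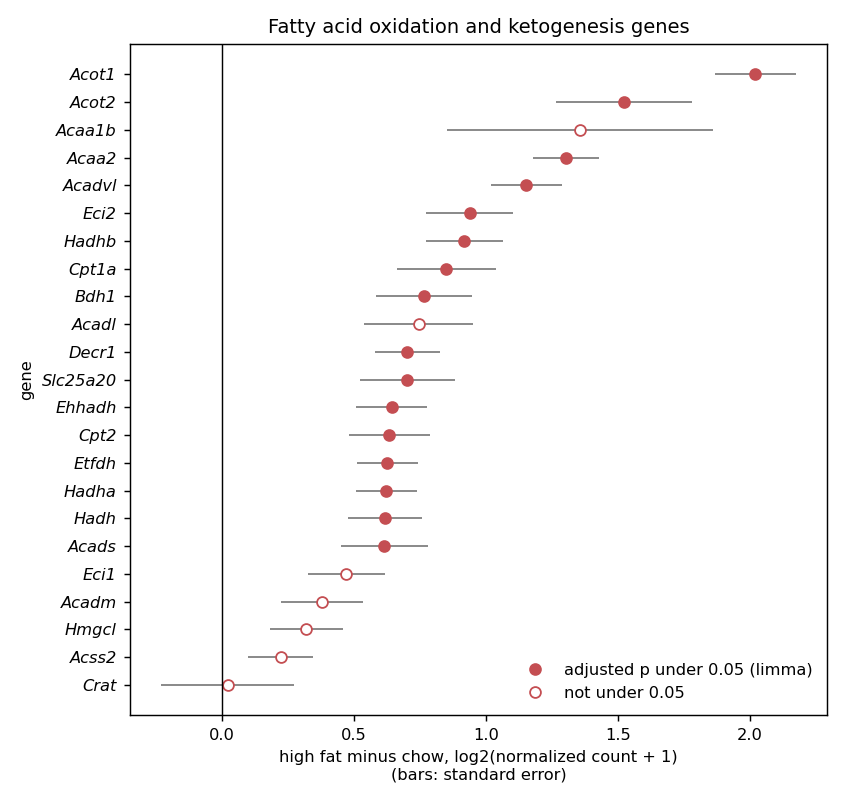
Difference between high fat and chow (horizontal axis, log2 of normalized count + 1) for genes of fatty acid oxidation and ketogenesis (vertical axis), with bars for the standard error and filled points for an adjusted p under 0.05. Filled points run from Acads at 0.62 to Acot1 at 2.02, and Crat at 0.02 is the lowest of the genes drawn.

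Reported targets of the PPAR receptors were higher as well, and 7 genes of this list are also on the oxidation list. Of 20 genes, 18 were tested, 10 rose (4.35% of all genes did) and none fell, with a median of 1.18. Without the animal series as a block 3 rises were called, and with the replicate number as a block 4 were. Fabp1, a cytoplasmic carrier of fatty acids, was at 977, 2162, 2053 and 885 in chow and at 20294, 20869, 4781 and 3995 in high fat. The high fat libraries of series BC18x stood above those of BC24x, and all were above chow. The log2 difference was 2.76 (SE 0.45, adjusted p = 0.0157), 3.82 within BC18x and 1.70 within BC24x, and the call was lost without BC181 (adjusted p = 0.0594). Angptl4, a secreted inhibitor of lipoprotein lipase, was at 335, 176, 208 and 97.2 in chow and at 432, 608, 1491 and 2183 in high fat. The order of the series was the opposite here, with 1.08 in BC18x and 3.65 in BC24x (2.36 in all, SE 0.51, adjusted p = 0.0298). Its call was lost without BC241, BC181, BC242 or BC244 (adjusted p up to 0.0947) and without both BC241 and BC242 (0.133).

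Cyp4a10, which hydroxylates the far end of fatty acids, was at 10.4, 3.88, 6.10 and 0 in chow and at 186, 249, 20.8 and 25.6 in high fat. It was near the floor in chow and clearly present in each high fat library, most in series BC18x (log2 4.02, SE 0.67, adjusted p = 0.0158). It was not called without BC180, BC181 or BC244 (up to 0.0627). Creb3l3, a liver and gut transcription factor of lipid metabolism, was at 181.5, 193, 525 and 263 in chow and at 1334, 1267, 616 and 667 in high fat. BC241 was the highest chow library and the margin to BC242 was small (log2 1.79, SE 0.38, adjusted p = 0.0294). Without BC180, BC243, BC181, BC242 or BC244 Creb3l3 was not called (up to 0.0995). Pdk4, the kinase that slows the use of glucose by blocking pyruvate dehydrogenase, was at 285, 217, 369.7 and 218 in chow and at 322, 448, 709.96 and 1182 in high fat. Its groups overlapped at BC241 and BC181. It was called at 1.15 (SE 0.29, adjusted p = 0.0428), but leaving out any library except BC182 ended the call (up to 0.114). Among 9 tested receptors and partners, Rxra, the common partner receptor, rose by 0.80 and the coactivator Ppargc1b by 0.72 (4.35% of all genes rose). Both lost their calls without some single libraries, since none of the 9 was called without BC180, BC181, BC242 or BC244. Ppara itself differed by 0.46 (adjusted p = 0.202). The fatty acid transporter Cd36 differed by 0.33 over all libraries, 2.04 within BC18x and -1.38 within BC24x, and was not called (adjusted p = 0.785). The number of rises among PPAR targets was 4 without BC180, 6 without BC243, 2 without BC181, 4 without BC242 and 3 without BC244, and 7 without both BC241 and BC242.

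PPAR receptors bind, with Rxra, to a direct repeat spaced by a single base, and such repeats have been described near the start of Fabp1. The 250 bases before the RefSeq start (build GRCm38.p6) of the called oxidation and PPAR target genes were therefore read on both strands for the element AGGTCA followed by any base and AGGTCA again, with at most 2 mismatches. Of 22 called genes 17 were in the promoter table, and 2 held a match, against 1063 of 32851 windows of this length in the table (3.24%). Acaa2, Angptl4, Cyp4a10 and Decr1 were among those not in the table. The windows of Fabp1 (chr6:71199629-71199878, plus strand) and Creb3l3 (chr10:81092592-81092841, minus strand) are shown because they are the 2 with a match, in capitals.
Fabp1: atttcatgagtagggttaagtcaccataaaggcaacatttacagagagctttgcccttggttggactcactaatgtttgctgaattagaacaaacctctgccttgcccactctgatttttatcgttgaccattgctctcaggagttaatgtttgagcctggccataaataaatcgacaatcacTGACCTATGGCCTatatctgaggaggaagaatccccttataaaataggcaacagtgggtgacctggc
Creb3l3: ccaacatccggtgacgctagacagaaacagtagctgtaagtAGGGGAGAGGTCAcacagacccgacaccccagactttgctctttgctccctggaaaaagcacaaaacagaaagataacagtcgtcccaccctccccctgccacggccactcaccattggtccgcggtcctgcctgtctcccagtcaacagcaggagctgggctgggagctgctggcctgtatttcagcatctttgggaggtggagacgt
In Fabp1 the match begins 67 bases before the start, lies on the opposite strand and has 1 mismatch. In Creb3l3 it begins 209 bases before the start, on the same strand, with 2 mismatches. A match describes the letters only.

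Genes for the uptake of dietary fat and the assembly of lipoproteins moved less uniformly. Of 22 genes, 3 rose (4.35% of all genes did) and none fell, with a median of 0.36. Beside Fabp1 and Creb3l3 these included Fabp2, the intestinal fatty acid carrier, at 2866, 5805, 2629 and 3479 in chow and 17418.5, 15026, 5469.9 and 5007 in high fat. Its BC24x high fat libraries lay below chow library BC183, so the groups overlapped (log2 1.39, adjusted p = 0.0269). The call of Fabp2 was lost without BC180, BC181, BC242 or BC244 (up to 0.0936). Apoa4 (1.18, adjusted p = 0.0745), Mttp, which loads lipid onto apolipoprotein B (0.88, adjusted p = 0.0572), and Dgat1 (0.63, adjusted p = 0.0535) did not pass. For all 22 genes the difference was larger in series BC18x than in BC24x: 21 were above 0 in BC18x (median 1.15), and 11 were below 0 in BC24x (median -0.01). No gene passed the test of the difference between the series. Rises on the list numbered 1 without BC180, none without BC181, 1 without BC242, 1 without BC244 and 2 without BC243. Without both BC241 and BC242 there were 3, but Fabp2 was not among them (adjusted p = 0.0886).

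**Figure D3:**
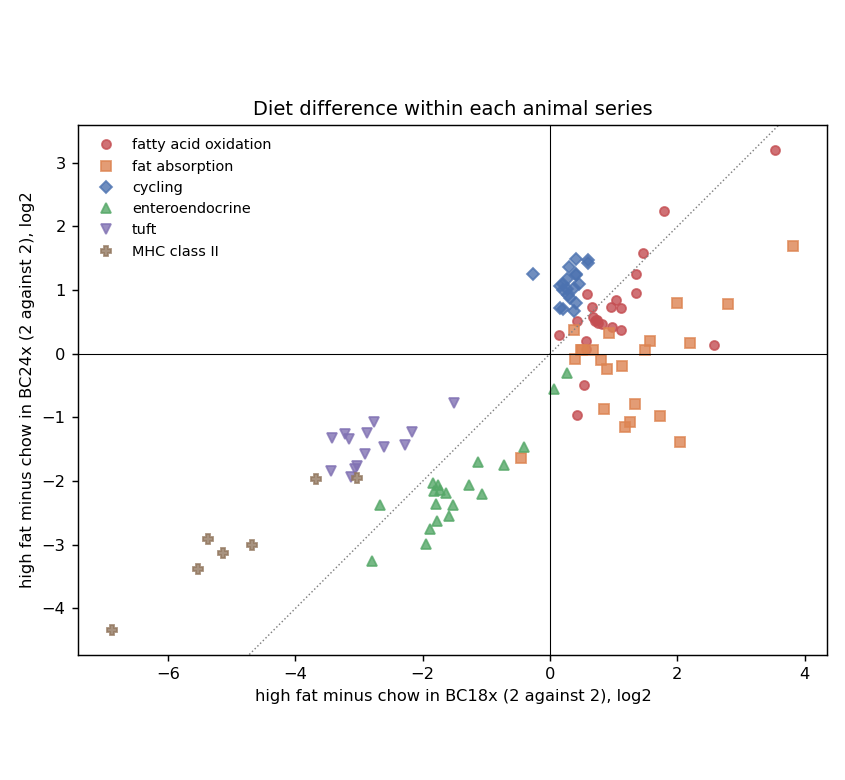
Difference between high fat and chow within series BC18x (horizontal axis) against that within BC24x (vertical axis), each 2 libraries against 2 on the log2 scale, for the members of 6 lists, with a dotted line of equal differences. The 22 fat absorption genes lie below the line, the 20 cycling genes lie above it, and the 14 tuft genes, whose falls were larger in BC18x, lie above it too.

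None of 25 genes of cholesterol synthesis and uptake was called in limma (median -0.01). At an unadjusted p under 0.05, 3 were higher and 1 lower. Among 17 tested genes of fatty acid synthesis 1 rose and 2 fell, beside 4.35% and 5% of all genes. Srebf1, the transcription factor that drives it, rose by 0.60. The desaturase Scd2 fell by 1.08, and Acly, which supplies cytoplasmic acetyl-CoA, fell by 0.58. Fasn differed by -0.11 (adjusted p = 0.684). None of these 3 calls was made without BC180, BC181, BC242 or BC244, without BC243 Srebf1 alone was called, and without BC241 Scd2 alone.

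Of 19 sugar-handling genes 5 rose (4.35% of all genes did) and 1 fell (5% of all genes did), with a median of 0.52. The median was 0.87 in BC18x and -0.19 in BC24x, where 7 of the 19 were above 0. Those that rose included Khk, the first enzyme of fructose breakdown (1.09), Tkfc (0.90), Fbp1 (0.71), an enzyme of gluconeogenesis, and Ldha (0.63). Hexokinase Hk1 fell by 1.21. The other 13 of 19 genes, including the fructose transporter Slc2a5 (-0.58, adjusted p = 0.398) and the sodium-glucose transporter Slc5a1 (-0.03, adjusted p = 0.898), did not pass. The fall of Hk1 was not called without BC180, BC241, BC181, BC242 or BC244 (adjusted p up to 0.088), nor without both BC241 and BC242 (0.116). No rise on this list was called without BC180, BC181 or BC242, 2 were without BC244, and none was without both BC241 and BC242 or without the animal series as a block.

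MHC class II genes had the lowest median of the lists tested. Of 9 listed genes 7 were tested, and all 7 fell (5% of all genes did), with a median of -4.13. None of them overlapped (7.36% of all genes lay wholly below chow). H2-Aa, the alpha chain of the I-A molecule, was at 3826, 12664, 900.01 and 10244 normalized counts in chow and at 40.9, 83.1, 152 and 145 in high fat. Chow library BC241 was the lowest of its group and still well above every high fat library. The fitted fall was 48.8-fold (log2 -5.61, SE 0.78, adjusted p = 0.0106), with -6.87 in BC18x and -4.35 in BC24x. It was called with any library left out.

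Its partner chain H2-Ab1 was at 12163, 33280.3, 2953 and 31208 in chow and at 349, 539, 939 and 908 in high fat (log2 -4.45, SE 0.71, adjusted p = 0.0147). Cd74, the invariant chain that escorts class II molecules, was at 31591, 67079.5, 7127 and 53308 in chow and at 806, 1525, 2601 and 2582 in high fat (log2 -4.14, SE 0.67, adjusted p = 0.0151). Both followed the pattern of H2-Aa, with BC241 the lowest chow library, as it was for all 7 genes. H2-Eb1 fell by 4.13, and H2-DMb1 (-3.85) and H2-DMa (-2.50) fell too, the last 2 encoding the chaperone that loads peptides. Ciita, the master activator of class II transcription, was at 379, 1027, 105 and 794 in chow and at 40.1, 57.4, 60.7 and 87.5 in high fat. It did not overlap and fell by 2.82 (SE 0.63, adjusted p = 0.0316). Calls on the list numbered 1 without BC180, 1 without BC181 and 4 without BC244, and all 7 remained without both BC241 and BC242, where H2-Aa stood at -6.63. Medians were -5.14 in BC18x and -3.01 in BC24x. The reads of H2 genes can be shared between similar copies, so the values of single H2 genes are less certain than those of Cd74 and Ciita.

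Markers of the immune cells that carry class II molecules were low. Over all 10 listed markers of B lymphocytes and plasma cells, summed levels were 88.4 to 118 normalized counts in chow and 61.5 to 124 in high fat, and none of the 4 tested was called. Over 12 myeloid markers, sums were 153 to 205 in chow and 151 to 220 in high fat, none of the 4 tested was called, and S100a8 was at 0 in all 8 libraries. These ranges overlapped between the diets. Sums over 12 T lymphocyte genes were 160 to 435 in chow and 76.9 to 116 in high fat. Of the 4 tested, Gzma, a protease of killer lymphocytes (-3.78), and the chemokine Ccl5 (-3.33) fell (5% of all genes did). Cd3e, Cd3d, Cd3g, Cd8a and Trac, with means of 1.52 to 7.42 over the 8 libraries, were too low to be tested. Gzma was at 23.3, 39.8, 14.0 and 18.7 in chow, at 7.17 in BC182 and at 0 in the other high fat libraries (adjusted p = 0.0217). Neither T cell call was made without BC180, BC181 or BC244, and Gzma was also lost without BC243 or BC242 (up to 0.0679). The part of immune cells in the class II result was not tested.

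Class II promoters share a Y box, an inverted CCAAT element. An exact CTGATTGG on either strand was found in 1258 of 32851 windows of 250 bases (3.83%) and in 2 of the 4 called class II genes that are in the promoter table. Cd74, Ciita and H2-Ab1 were not in the table. The windows of H2-Aa (chr17:34287824-34288073, minus strand) and H2-Eb1 (chr17:34305617-34305866, plus strand), from RefSeq with build GRCm38.p6, are shown for comparison because both genes fell and both hold the element, in capitals.
H2-Aa: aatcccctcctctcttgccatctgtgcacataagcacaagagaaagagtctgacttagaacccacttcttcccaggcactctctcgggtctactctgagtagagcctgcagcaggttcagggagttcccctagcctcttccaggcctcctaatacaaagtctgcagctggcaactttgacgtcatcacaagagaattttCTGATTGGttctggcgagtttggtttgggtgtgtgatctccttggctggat
H2-Eb1: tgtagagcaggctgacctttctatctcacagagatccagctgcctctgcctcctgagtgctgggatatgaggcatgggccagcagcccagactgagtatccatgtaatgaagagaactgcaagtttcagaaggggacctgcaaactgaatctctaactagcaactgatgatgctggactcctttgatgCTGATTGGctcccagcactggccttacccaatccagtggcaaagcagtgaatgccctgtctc
The element begins 51 bases before the start in H2-Aa and 62 bases before it in H2-Eb1, on the same strand as the gene in both.

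Interferon-stimulated genes were mostly lower. Of 17 tested genes, 7 fell (5% of all genes did), none rose, and the median was -0.87. Without the animal series as a block, 4 falls were called. Usp18, which removes the ubiquitin-like protein ISG15 and dampens interferon signals, was at 385, 312, 1030.2 and 741 in chow and at 59.8, 119, 107 and 176 in high fat. The groups did not overlap (log2 -2.34, SE 0.28, adjusted p = 0.0074). Oas2, an enzyme that double-stranded RNA activates, was at 76.1, 90.0, 161 and 84.6 in chow and at 12.7, 18.9, 16.7 and 26.7 in high fat, again without overlap (log2 -2.38, SE 0.32, adjusted p = 0.00991). Oasl2 fell by 1.41 (adjusted p = 0.0087). These were the 3 list members called with any library left out. Gbp2, a guanylate-binding protein of cell-autonomous defence, was at 27.3, 52.4, 29.4 and 106 in chow and at 5.82, 3.57, 4.40 and 4.53 in high fat. It was uniformly low on high fat and fell by 3.09 (adjusted p = 0.0149), but was not called without BC244 (0.0541). Irf7 fell by 1.33, Rtp4 by 1.25 and Stat2 by 0.75. Isg15 (-0.70, adjusted p = 0.214) did not pass. Oas and Gbp genes have close copies, among which reads may be shared. The list held 4 falls without BC243, 4 without BC181, 4 without BC242 and 3 without BC244, and 4 without both BC241 and BC242.

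The core of the interferon response element, GAAA followed by any 2 bases and GAAA, was read exactly on both strands of the same RefSeq windows. It was in 978 of 32851 windows (2.98%) and in 2 of the 4 called genes that are in the table, Gbp2 and Stat2. Oas2, Rtp4 and Usp18 were not in the table. The window of Gbp2 (chr3:142620413-142620662, plus strand, GRCm38.p6) is shown as that of the larger fall, with the core in capitals.
Gbp2: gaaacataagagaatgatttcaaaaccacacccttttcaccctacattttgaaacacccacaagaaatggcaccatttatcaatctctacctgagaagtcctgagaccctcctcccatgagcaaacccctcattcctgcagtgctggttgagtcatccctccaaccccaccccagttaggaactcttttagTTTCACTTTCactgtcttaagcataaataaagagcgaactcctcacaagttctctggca
The core lies on the opposite strand and begins 59 bases before the start.

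Among 11 tested antimicrobial and oxidase genes, Nos2, the inducible nitric oxide synthase, was at 315.2, 175, 139.6 and 394 in chow and at 28.1, 20.4, 42.3 and 36.5 in high fat. It did not overlap, fell by 2.89 (SE 0.36, adjusted p = 0.0087) and was called with any library left out. Reg3b and Reg3g, secreted lectins that act on bacteria, fell by 2.07 and 1.24, and Reg1 rose by 1.01. Of the 11 genes 3 thus fell and 1 rose, beside 5% and 4.35% of all genes. Members of the Reg family are similar in sequence. The falls of Reg3b and Reg3g were not called without BC180, BC243, BC181, BC242 or BC244, Reg3b was also lost without BC241 and Reg3g without BC182 (adjusted p up to 0.126). The call of Reg1 was lost without BC180, BC181, BC242 or BC244. Duox2, an oxidase that makes hydrogen peroxide, differed by -0.44 (adjusted p = 0.273).

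Hormone genes of enteroendocrine cells were lower on high fat. All 20 listed genes lay below 0, and the median was -1.93. Of the 20, 15 fell (5% of all genes did) and 14 did not overlap (7.36% of all genes lay wholly below chow). Nts, which encodes neurotensin, was at 8714, 8866, 72438 and 25115 in chow and at 1055, 1502, 3668 and 5489 in high fat. BC241 had the highest level in chow by a wide margin, and every high fat library was below every chow library. The fitted fall was 8.14-fold (log2 -3.03, SE 0.31, adjusted p = 0.00549). Gcg, the precursor of glucagon-like peptides, was at 11292, 8645, 37375 and 16490.5 in chow and at 1016, 2344, 4369.8 and 5236 in high fat, and fell 5.76-fold (log2 -2.53, SE 0.31, adjusted p = 0.0087). Pyy, which encodes the satiety peptide YY, was at 9777, 5847, 39038 and 27308 in chow and at 1423, 2677, 3811 and 4434 in high fat, and fell 5.55-fold (log2 -2.47, SE 0.29, adjusted p = 0.0074). Neither of these overlapped.

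Cck fell by 2.32, Sct, which encodes secretin, by 2.20, Tac1 by 1.93 and Gip by 1.41. The transcription factors of the lineage also fell: Rfx6 (-1.98), Pax6 (-2.07), Neurod1 (-2.08), Nkx2-2 (-1.94), Insm1 (-1.67) and Isl1 (-1.64). Neurog3, which starts the lineage, differed by -0.02 (adjusted p = 0.967), and Sst, which encodes somatostatin, by -0.25 (adjusted p = 0.523). Chga missed the threshold at -1.95 (adjusted p = 0.051). The list held 2.89%, 2.39%, 9.43% and 5.87% of the chow libraries and 0.666%, 1.55%, 1.44% and 2.04% of the high fat libraries. BC241 was the highest chow library for 18 of the 20 genes. Nts, Gcg, Pyy and Rfx6 were called with any library left out. The list held 4 falls without BC180, 10 without BC241, 4 without BC181, 7 without BC242 and 5 without BC244, and 6 without both BC241 and BC242, where its median was -1.57. Without the animal series as a block 1 fall was called, and with the replicate number as a block 8 were. Beyond the list, the lipid and fatty acid receptors of these cells Gpr119 (-2.69, adjusted p = 0.00549) and Ffar1 (-2.40, adjusted p = 0.00728) fell and were called with any library left out. Scgn, a calcium sensor (-2.19), fell likewise. These 3 were chosen after their values were seen.

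Tuft cell genes were all lower. Each of the 14 listed genes fell and none overlapped, with a median of -2.24. Over all tested genes 5% fell and 7.36% lay wholly below chow. Trpm5, the cation channel of taste-like signalling, was at 3481, 3122, 5553 and 2111 in chow and at 241.96, 634, 1113 and 853 in high fat. The lowest chow library, BC243, was above the highest high fat library, BC242 (log2 -2.44, SE 0.40, adjusted p = 0.0152). Dclk1, a kinase commonly used to mark these cells, was at 3211, 2803, 3916 and 1644 in chow and at 179.9, 622, 1154 and 881 in high fat, also apart (log2 -2.25, SE 0.48, adjusted p = 0.0294). Avil, an actin-binding protein, had the largest fall (-2.64), and Pou2f3, the transcription factor that tuft cells require, fell by 1.69. Il25, the cytokine through which tuft cells call in type 2 immunity, was at 77.2, 104, 53.0 and 35.8 in chow and at 8.02, 15.4, 16.9 and 11.5 in high fat, and fell by 2.24 (adjusted p = 0.0187). Cd24a, which other crypt cells also make, had the smallest fall (-1.14). The tested members held 0.277%, 0.275%, 0.415% and 0.215% of the chow libraries and 0.0375%, 0.0738%, 0.129% and 0.109% of the high fat libraries.

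All 14 tuft genes fell more in series BC18x (median -2.97) than in BC24x (median -1.38), and no gene passed the test of that difference. No tuft gene was called with any library left out: none of the 14 was called without BC180 or without BC244, 8 were without BC181, 8 without BC242 and 3 without both BC241 and BC242, where the median was -2.36. Without the animal series as a block 6 were called. For Trpm5 the adjusted p was 0.0569 without BC180 and 0.0539 without BC244.

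**Figure D4:**
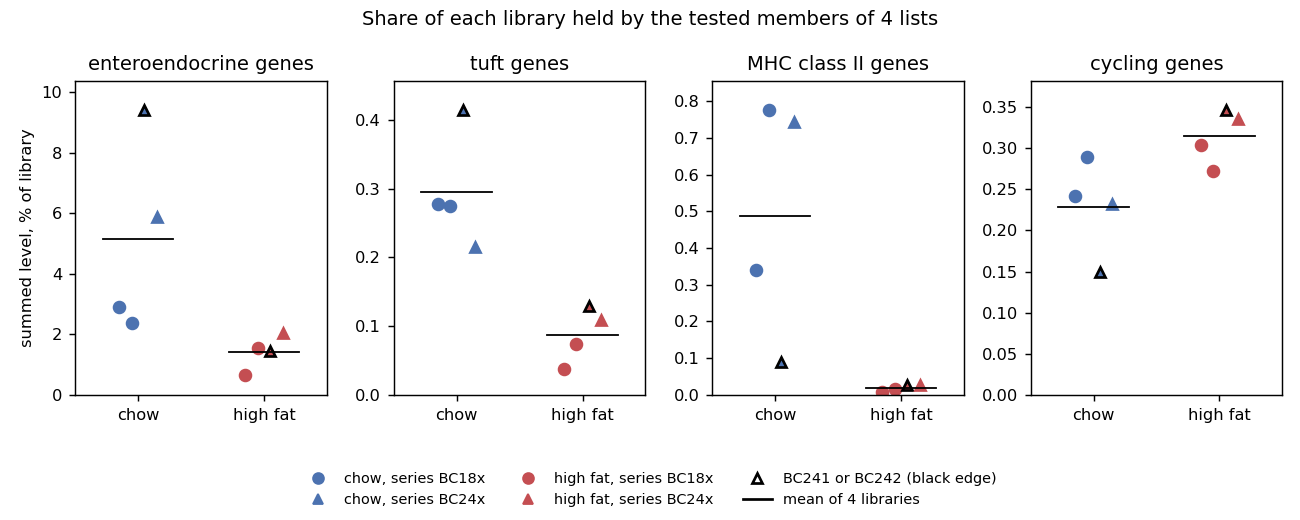
Summed level of the tested genes of 4 lists as a percent of each library's normalized counts (vertical axes, starting at 0), with 1 point per library, the mean of each diet as a bar, circles for series BC18x, triangles for BC24x and black edges for BC241 and BC242. Enteroendocrine, tuft and class II shares are lower in every high fat library than in every chow library, BC241 is at 9.43% for enteroendocrine genes and at 0.0889% for class II genes, and cycling shares overlap.

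Stem cell markers gave 1 call. Of 18 genes 1 rose, a share near the 4.35% of all genes that rose, and none fell. The median was 0.01, but it was -0.30 in BC18x, where 4 genes were above 0, and 0.38 in BC24x, where 16 were. Gkn3, a secreted gastrokine reported in crypt base cells, was at 1455, 1013, 798 and 709 in chow and at 2012, 2392, 4249 and 2535 in high fat, without overlap (log2 1.49, SE 0.28, adjusted p = 0.0208). The call of Gkn3 was lost without BC244 (0.0661) and without both BC241 and BC242 (0.0645). Cdk6, a kinase of cell cycle entry, differed by 0.93 (95% interval 0.22 to 1.64) and did not pass (adjusted p = 0.0857), and its groups overlapped. Ascl2, the transcription factor of stem cell identity, differed by 0.30 (adjusted p = 0.422). Of 17 tested genes of Wnt and Notch signalling, only the Wnt inhibitor Nkd1 was called (9.35% of all genes were), with a fall of 1.32 (adjusted p = 0.0369). It was not called without BC180, BC241, BC243, BC181 or BC244.

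DNA replication and mitosis genes were all higher by some amount, 20 of 20, with a median of 0.65. Only 3 passed (4.35% of all genes rose): Cdk1, the kinase that drives mitosis (1.02), Birc5 (1.03) and Ccnb2 (0.77). In limma 19 of the 20 were higher at an unadjusted p under 0.05 (16.8% of all genes were). The libraries of 10 lay wholly above chow (8.81% of all genes did so). Cdk1 was at 1844, 2709, 963 and 1387 in chow and at 4019.7, 2859, 3186 and 3057 in high fat. Its highest chow library, BC183, lay just below the lowest high fat library, BC182 (SE 0.22, adjusted p = 0.0311). BC241 was the lowest chow library for 19 of the 20 genes. None of the 20 was called without BC180, BC241, BC243, BC181, BC242 or BC244, nor without both BC241 and BC242 (median 0.44), and 11 were called without BC183 or without BC182. All 20 differences were larger in BC24x (median 1.08) than in BC18x (0.31). Mki67 stood at 0.83 (adjusted p = 0.0582). Hells (1.49, adjusted p = 0.0129), a helicase of replicating chromatin, and the histone gene Hist1h1b (1.43, adjusted p = 0.0104) are not on the list and were named after their values were seen. Both rose and were called with any library left out. Neither was called in a limma fit over all 16 mRNA libraries of the series (adjusted p = 0.0726 for Hells and 0.0967 for Hist1h1b).

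Markers of the other crypt lineages gave few calls. Over all genes 4.35% rose and 5% fell. Of 14 Paneth cell genes none rose and 2 fell, Reg4 by 2.39 and Mptx2 by 1.68, while the other genes ranged from -0.27 to 1.38 and 11 of the 14 were above 0. Reg4, which enteroendocrine cells also make, was at 22903, 21160.00, 90439 and 32798 in chow and at 3156, 11282, 5951 and 9065 in high fat. It did not overlap and was highest in BC241 (adjusted p = 0.0208). Neither call was made without BC180, BC181 or BC242, and that of Reg4 was also lost without BC244. The summed Paneth list held 5.19%, 3.63%, 1.51% and 0.733% of the chow libraries and 3.88%, 5.14%, 1.75% and 1.75% of the high fat libraries, following the animal series more than the diet. All 13 goblet cell genes were higher by some amount (median 0.79) and none passed in limma. At an unadjusted p under 0.05, 3 were higher. Their sum held 0.572%, 0.622%, 0.494% and 1.79% of the chow libraries and 1.77%, 1.52%, 0.591% and 1.71% of the high fat libraries. BC243 was thus the highest chow library, and without it 4 goblet genes were called, all higher. The goblet median was 1.26 in BC18x and 0.13 in BC24x, where 7 genes were above 0. Among 15 enterocyte genes 3 rose, Fabp1 and Fabp2 among them, and the peptide transporter Slc15a1 fell by 1.24. Of these 4 calls only 1 was made without BC180, BC242 or BC244 and none without BC181. The enterocyte median was 1.02 in BC18x and -0.40 in BC24x. The 13 mitochondrially encoded genes were all higher by some amount (median 0.51) and none passed in limma. At an unadjusted p under 0.05, 2 were higher, and 11 of the 13 were negative within BC18x.

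Among 16 tested genes of retinoid and xenobiotic handling, 4 rose and 1 fell, beside 4.35% and 5% of all genes. The retinol dehydrogenase Rdh7 (1.42), the glutathione transferase Gstm3 (1.28), the carboxylesterase Ces2a (1.12) and Dhrs3 (0.77) rose, and the alcohol dehydrogenase Adh1 fell by 1.31. Gstm3, at 701, 959, 487 and 591 in chow and 2294, 2134, 1289.7 and 1069.8 in high fat, was apart by diet and was called with any library left out. It was not called in a limma fit over all 16 mRNA libraries of the series (adjusted p = 0.251). The list held 2 rises without BC180, 1 without BC181, 2 without BC242 and 2 without BC244, and the fall of Adh1 was lost without each of these libraries (adjusted p up to 0.0735). Of 14 genes of the oxidative stress response, Gpx1 (0.84), Gpx4 (0.59), Cat (0.51) and Sod2 (0.50) rose (4.35% of all genes did). None of the 4 was called without BC180, BC181, BC242 or BC244, and 2 of the list were without BC241 or without BC243. Of 15 immediate early and heat shock genes, which tissue handling can induce, 5 fell (5% of all genes did) and none rose (median -0.72): Junb by 1.04, Ier3 by 0.79, Jun by 0.72, Zfp36 by 0.66 and Dnajb1 by 0.65. None of these 5 was called without BC180, BC243, BC181, BC242 or BC244, nor without the animal series as a block. In the unfolded protein response and the circadian clock, with 13 tested genes each, Ddit3 (-0.68, adjusted p = 0.0404) and Cry2 (-1.45, adjusted p = 0.0444) were the single calls. Both were lost without BC180, BC241, BC243, BC181, BC242 or BC244, and Ddit3 without BC182 as well. A single call among 13 genes is no larger a share than the 9.35% of all genes called.

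The named genes with the largest rises outside these lists were mixed. Arhgef4, an exchange factor for small GTPases, was at 15.4, 71.99, 30.1 and 22.7 in chow and at 256, 385, 238 and 392 in high fat. It stood well apart (log2 3.34, SE 0.43, adjusted p = 0.00919). Clca4a was at 26.0, 18.3, 20.01 and 13.0 in chow and at 91.8, 69.7, 83.5 and 128 in high fat, with a log2 difference of 2.22 (adjusted p = 0.0129). Ces2g, a carboxylesterase, was at 273, 361, 158 and 169.9 in chow and at 1253, 1203, 549 and 626 in high fat, and rose 3.73-fold (log2 1.90, SE 0.14, adjusted p = 0.00177). All 3 were apart by diet and were called with any library left out. Arhgef4 and Ces2g were also called without both BC241 and BC242, but Clca4a was not (adjusted p = 0.0527). Reads may be shared among the Ces2 genes. Robo3, a guidance receptor (2.59, adjusted p = 0.0303), G0s2, an inhibitor of fat breakdown (2.31, adjusted p = 0.0241), Ces2b (2.29, adjusted p = 0.044) and Trim71 (2.11, adjusted p = 0.0396) also rose. Robo3 and G0s2 were not called without BC180, BC181, BC242 or BC244 (up to 0.107 and 0.0873). Ces2b was lost also without BC243 or BC182 (up to 0.13), and Trim71 without any library but BC183 (up to 0.132). Robo3, G0s2, Ces2b and Trim71 were not called without both BC241 and BC242 (adjusted p 0.0639 to 0.161).

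Among the largest falls outside the lists were Afp, the fetal serum protein, at 908, 834, 6276 and 2071 in chow and 41.9, 227, 152 and 313.7 in high fat. It did not overlap and fell by 3.59 (SE 0.53, adjusted p = 0.0129), and was lost without BC180 (0.0502). Tgtp2, an interferon-induced GTPase with close copies, was at 144, 1263, 54.4 and 1127 in chow and at 9.24, 34.8, 38.9 and 0 in high fat (log2 -4.89, adjusted p = 0.0462). Its chow levels spread widely, and leaving out any library except BC182 ended its call (up to 0.133). Chd5, a chromatin remodeller, was at 9.07, 8.70, 276 and 225 in chow and at 3.92, 3.38, 2.78 and 6.21 in high fat, so that its fall of 3.34 (adjusted p = 0.0405) rested mostly on series BC24x. It was not called without BC180, BC241, BC243, BC181, BC242 or BC244 (up to 0.119). Hotairm1, an antisense RNA of the Hoxa cluster whose counting strand is not stated, was at 18.6, 22.7, 14.8 and 35.7 in chow and at 4.52, 0, 0.192 and 0 in high fat (log2 -3.83, adjusted p = 0.0197). Its call was lost without BC180, BC243, BC242 or BC244 (up to 0.0652). The globin genes Hbb-bs (-4.54, adjusted p = 0.0257) and Hba-a2 (-3.65, adjusted p = 0.0412) fell, and the sums over 5 red blood cell genes were 103 to 538 in chow and 11.7 to 48.7 in high fat. Neither globin gene was called without BC180, BC241, BC242 or BC244, and Hba-a2 also not without BC243, BC181 or BC182. Without both BC241 and BC242, none of Afp, Tgtp2, Chd5, Hotairm1 and the globin genes was called (adjusted p 0.0514 to 0.182).

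**Figure D5:**
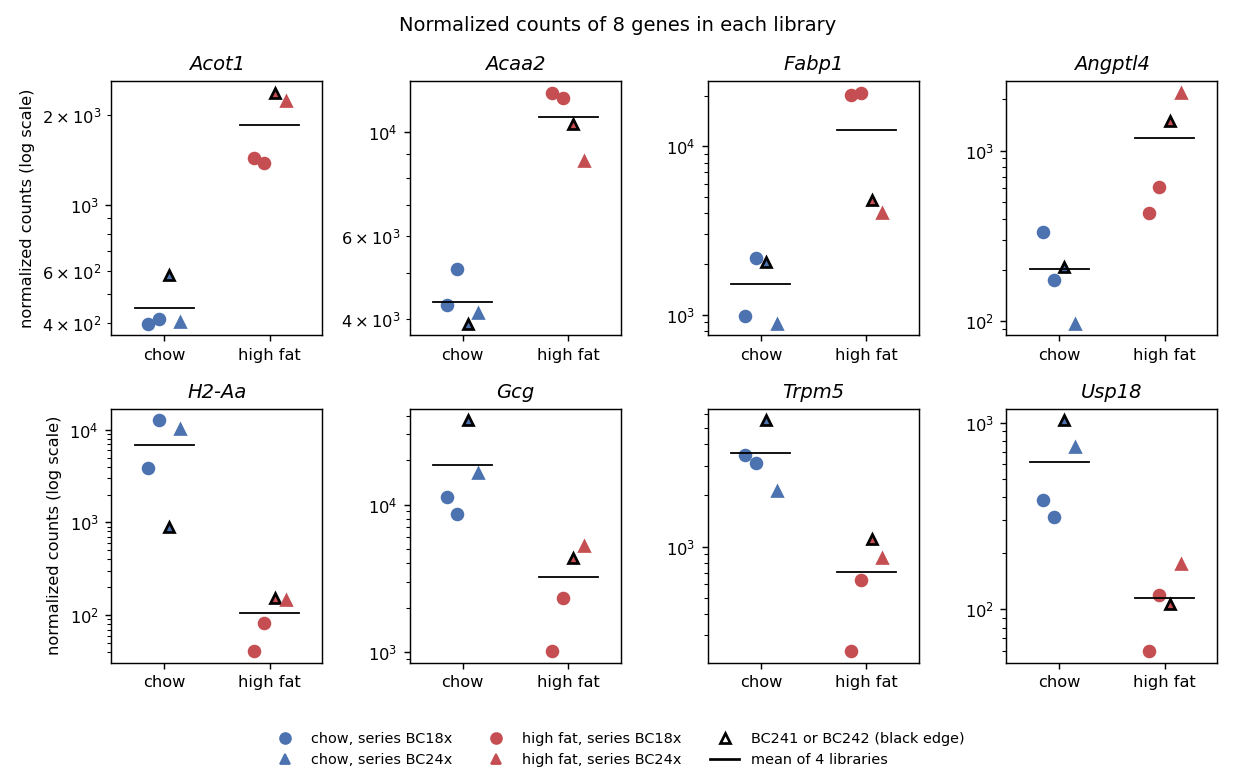
Normalized counts (vertical axes, log scale) of 8 genes in each library, with circles for series BC18x, triangles for BC24x, black edges for BC241 and BC242 and a bar at the mean of each diet. High fat libraries lie above all chow libraries for Acot1, Acaa2, Fabp1 and Angptl4 and below all of them for H2-Aa, Gcg, Trpm5 and Usp18.

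The 77 genes called with any library left out held further absorptive and detoxifying genes among the 28 that were higher. These included Ugt2a3 (1.63), the organic anion carrier Slco2b1 (1.62), the ferric reductase Steap3 (1.56), Aadac (1.45), Prap1 (1.40), Retsat, the retinol saturase (1.21), Ugt1a1 (1.12), Etfb, which takes electrons from fatty acid dehydrogenases (1.04), and the transcription factor Hnf4g (0.99). The groups of Ugt2a3, Aadac, Prap1 and Hnf4g overlapped. In a limma fit over all 16 mRNA libraries, only Ugt2a3 and Retsat of these named rises were called. Ugt1a1 was not called without both BC241 and BC242 (adjusted p = 0.0527). Retsat was at 1073, 1374, 907 and 1004 in chow and at 3214, 3169, 1984 and 1910.3 in high fat, with all high fat libraries above chow. The 49 that were lower included Gbp8 (-3.03), Rac2, a small GTPase of blood cells (-2.91), and Fabp5, a fatty acid carrier (-1.51). Gbp8 and Fabp5 were called in the limma fit over 16 libraries, and Rac2 was not (adjusted p = 0.251). Fabp5 was at 7009, 7856, 17804 and 15144 in chow and at 2637, 3878, 4084 and 5325 in high fat, so that all high fat libraries were below chow, the reverse of Fabp1. These genes were named after their values were seen.

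The diet difference was also set against that between germ-free and conventionalized mice, measured in 8 other Sox9-EGFP Low libraries, so that the comparisons share no library. In a limma fit over the 16 libraries the difference of the differences passed for 3635 genes (22.1%), 2006 higher and 1629 lower with diet. With that spread the diet difference itself passed for 293 genes (1.78%) and the germ-free difference for 1991 (12.1%). Enteroendocrine genes had a median of -1.93 with high fat and 1.78 in germ-free mice, and 19 of 20 passed the test of the difference. Tuft genes, with -2.24 and 0.83, passed in 14 of 14. Cycling genes, with 0.65 and -1.47, passed in 18 of 20, and oxidation genes, with 0.70 and -0.41, in 16 of 25. The diet difference by itself was called in this fit for 12 enteroendocrine, 7 tuft and 5 oxidation genes, and for 0 cycling genes. Class II genes had medians of -4.13 and -1.17, none of the 7 was called in germ-free mice, and 4 of 7 passed the test of the difference. Usp18 differed by -2.34 with high fat and by 2.18 in germ-free mice (difference -4.52, adjusted p = 6.59e-05). Acadvl differed by 1.15 and -0.50 (difference 1.65, adjusted p = 0.00364). Reg3b fell by 2.07 with high fat and differed by -7.08 in germ-free mice (difference 5.01, adjusted p = 0.0147), so both differences were negative and the germ-free one was the larger.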

How the data were processed

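mRNA was measured in 8 libraries, 4 for each diet. The table deposited by the authors holds normalized counts per gene, a signal that was divided by a factor per library. How that factor was found is not stated in the sources used here. Cell Ranger, STAR, Salmon, DESeq2 and the build mm10 are named in the submitters' processing notes without a role or order. Library preparation used a SMARTer Ultra Low Input kit together with a Nextera XT kit, per the labels' protocols. Many values are not whole multiples of a read, so no count test was used. Entries without a gene name, 381 in all, held 0.0338% to 0.0442% of a library and were left out, and 63 symbols occur on more than 1 entry.

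Values were analysed as log2(normalized count + 1), a scale that understates changes of low genes, with limma 3.58.1 under R 4.3.3, using lmFit and a trended eBayes. The model held diet and animal series. Tests are two-sided, with Benjamini-Hochberg adjustment over all 16421 genes and a call at an adjusted p under 0.05. The fit had 5 residual degrees of freedom. The pipeline was tested on simulated data. Genes were named by these rules: the 12 largest rises and 12 largest falls among called genes with separate groups, without predicted genes (45 of 513 rises and 38 of 675 falls without overlap); called list members; and 6 fixed genes. Some genes are not reported here. The members and lists were chosen with earlier results of these data known. Alternatives covered scaling, filter, pseudocount, blocks, the spread and each library left out, and leaving out both BC241 and BC242 was chosen after seeing the data. Promoter windows were read with Python 3.11.15, pandas 2.3.3 and numpy 2.4.6, and matplotlib 3.10.9 drew the plots. Depth limits low genes most, since values near 1 rest on about 1 read.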

Additional observations from a re-analysis of the deposited data

Results flagged for a closer look

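Of 58 sets of 4 libraries examined, each a named gene in one diet, 4 had a library far from the others by Dixon's criterion, which chance alone meets in about 1 of 20 sets. Acot1 stood at 581 normalized counts in chow library BC241, against 399 to 414 in the other chow libraries. Sox9 stood at 5444 in high fat library BC242, against 3693 to 3876 in the others. Hotairm1 stood at 4.52 in high fat library BC181, against 0 to 0.192. Gzma stood at 7.17 in high fat library BC182 and was listed at 0 in the others. With the others at 0, any level above 0 in BC182 would have met the criterion. BC241 and BC242 are the libraries whose diet names conflict.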

How the results depend on the processing

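The share of tested genes called between the diets, 9.35%, changed with the model. It was 0.822% without the animal series as a block, 5.45% after quantile normalization, 1.78% with the spread of all 16 mRNA libraries and 16.9% with sample weights. It was 3.76% with no filter on low values (1387 of 36840 genes) and 14.8% with a minimum mean of 50 (1779 of 12020). With single libraries left out it ranged from 0.621% to 13.9%. It was 0.859% in series BC18x alone, 1.28% in BC24x alone, and 0.98% without both BC241 and BC242, where 145 of the 161 calls were among the 1535. Pseudocounts of 5 and 10 and rescaling by median of ratios gave 7.72% to 10.3%. The difference for Lgr5 turned to 0.12 in BC24x alone. That for Olfm4 turned to -0.10 after quantile normalization, -0.79 in BC18x alone and -0.41 without both BC241 and BC242, and ran from -0.25 to 0.26 with single libraries left out, below 0 without BC241 (-0.25), BC242 (-0.20) or BC244 (-0.04). Neither gene was called in any of these, and the cause was not tested.

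A replicate block, using the numbers the labels share between diets, gave 1.65% (66 higher and 205 lower). Same-numbered libraries correlated at 0.076, 0.088, 0.044 and 0.219 in their deviations from the diet means, and only numbers 1 and 4 matched best with their own number, so the numbers were not taken as pairs. Fatty acid oxidation rises numbered 10 after quantile normalization and 6 with the replicate block, against 17. With 4 libraries per diet, few animals carry each comparison, and genes near 1 read per library could not be resolved.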

Other observations

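Other lists showed few calls. None of 10 sterol efflux genes and none of 13 tested genes of ileal or proximal identity was called in limma. At an unadjusted p under 0.05 there were 3 higher and 2 lower in the first list and 1 higher in the second. Among 14 stromal and endothelial markers 4 were tested, none was called, and the sums over all 14 were 80.7 to 365 in chow and 146 to 245 in high fat. Of 10 exocrine pancreas genes only Cela1 reached the level tested, and it rose by 0.70 (limma adjusted p = 0.0461). Its call was lost without any single library except BC241 (up to 0.133). Ddx3y and Eif2s3y, on the Y chromosome, were at 0 in all 8 libraries, and the Y genes Uty and Kdm5d had means of 2.46 and 1.28 normalized counts.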
